A study of Mus musculus with 8 samples.

Results

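The genes described here are 9 transcripts that mark macrophages as a class, Adgre1, Cd68, Csf1r, Cd14, Lyz2, Trem2, Ms4a7, Msr1 and Aif1. They were taken by symbol from the deposited table, in which all 9 have a row, among 19129 named genes in all. The table holds RNA sequencing of pancreatic tumour isografts, mouse tumours grown in recipient mice, from 8 mice with 1 library each. The 4 libraries labelled control came from mice for which the labels name no treatment, and whether they received vehicle is not known here. The other 4, labelled MEKi, came from mice given trametinib, an inhibitor of the ERK-activating kinases MEK1 and MEK2, for 7 days. The labels give neither strain, sex nor age of the mice, nor the genotype or clonality of the tumour line. Libraries are called control 1 to 4 and MEKi 1 to 4 after their labels, which name no link between animals that share a number. The series title names the depletion of tumour-infiltrating macrophages under MAP kinase inhibition, and the comparison of the 2 labels is the one that bears on it.

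Macrophages are phagocytes that arise from embryonic precursors or from blood monocytes, and in pancreatic tumours they are among the most abundant immune cells. Their survival and differentiation depend on the receptor CSF1R, which binds the growth factors CSF1 and IL-34 and signals in part through ERK. They recognise microbes, dying cells, modified lipoproteins and lipids with surface receptors such as CD14, MSR1 and TREM2, and degrade what they take up in lysosomes rich in CD68 and lysozyme. Several of the 9 genes are not limited to macrophages: Cd14 and Lyz2 are also transcribed by monocytes and neutrophils, and Csf1r by monocytes and some dendritic cells.

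All 9 genes were well covered. The sparsest measurement was 315 reads, for Trem2, and reads in named genes ranged from 20090101 to 38569550 per library. Values are on the authors' variance-stabilised log2 scale, on which 5.12 stands for 0 reads and a difference of 1 is near a doubling for abundant genes. Levels of different genes were compared as reads divided by the library's size factor and by the kilobases of annotated exon (normalised reads per kilobase). By median over the 8 libraries, Lyz2, the main lysozyme gene of mouse myeloid cells, stood first with 19339 and ranged from 17480 to 22056. Cd14 followed with a median of 4023 (2300 to 4716). Cd68 had a median of 979 (836 to 1598), Csf1r 699.7 (609 to 1155), Aif1 558 (359 to 833) and Adgre1 444 (294 to 734). The lowest medians were 257 for Ms4a7 (181 to 356), 162 for Msr1 (72.7 to 294) and 90.8 for Trem2 (68.8 to 119). Lyz2 lay above Cd14, and Cd14 above Cd68, with no overlap of their ranges. Each later neighbour in this order overlapped with the next, although Cd68 exceeded Csf1r and Adgre1 exceeded Ms4a7 in all 8 libraries. The exon lengths join every annotated transcript form, so a gene with rarely used exons, such as Trem2 with 4946 bases, is placed lower than its main form would be.

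Reads of 2 members could be shared with other genes. Lyz2 (chromosome 10, 117277331 to 117282321, minus strand) has a neighbouring copy, Lyz1, the lysozyme gene of Paneth cells, and 15.4% of the 50-base words of its transcripts also occur in those of Lyz1. Lyz1 itself had between 12 and 83 reads per library, from 0.0658% to 0.294% of the reads of Lyz2. Of the exon bases of Csf1r, 15.1% lie opposite exons of Hmgxb3. The libraries are strand-specific per the labels, but no source used here says whether the counting used strand. The other members lie in annotated protein-coding genes with 0 exon bases shared with another gene, and of their 50-base words only 0.306% of those of Ms4a7 occur elsewhere.

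RefSeq promoter windows (build GRCm38.p6, 250 bases before the annotated start) were found for 5 of the 9 genes: Lyz2, Cd68, Aif1, Trem2 and Ms4a7. The motif GAGGAA, the core bound by the myeloid factor PU.1, was searched on both strands. So was TGANTCA (N, any base), a loose form of the site of AP-1 factors, many of which are induced by ERK signalling. GAGGAA occurs in the full windows of 3 of the 5 genes, Cd68, Trem2 and Aif1 (in Aif1 only within an annotated exon), against 23.3% of all 32851 windows. TGANTCA occurs in those of Cd68, Trem2 and Ms4a7, against 6.75% of all windows. Its letters are TGAGTCA in Cd68, TGAATCA in Trem2 and TGATTCA in Ms4a7. Only Cd68 thus has G or C at the middle base, as in the usual AP-1 site. The 5 genes have 6 windows, 2 of them for Ms4a7, of which only that at chr19:11334696-11334945 holds the match. The members are thus counted by gene and the shares over all windows by window. The windows below were cut back to bases outside annotated exons and are shown, with matches in capitals, for Cd68 and Trem2, which hold both motifs, and for Lyz2, the most abundant member, which holds neither. They are chr11:69666171-69666420 (minus strand), chr17:48346151-48346400 (plus strand) and chr10:117282322-117282522 (minus strand), each written from 5′ to 3′ on the strand of the gene.
Cd68: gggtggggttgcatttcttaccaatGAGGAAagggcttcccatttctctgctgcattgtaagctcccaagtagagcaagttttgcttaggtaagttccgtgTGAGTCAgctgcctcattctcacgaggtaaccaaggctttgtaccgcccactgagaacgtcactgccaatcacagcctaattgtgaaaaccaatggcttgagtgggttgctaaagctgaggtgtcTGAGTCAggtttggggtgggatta
Trem2: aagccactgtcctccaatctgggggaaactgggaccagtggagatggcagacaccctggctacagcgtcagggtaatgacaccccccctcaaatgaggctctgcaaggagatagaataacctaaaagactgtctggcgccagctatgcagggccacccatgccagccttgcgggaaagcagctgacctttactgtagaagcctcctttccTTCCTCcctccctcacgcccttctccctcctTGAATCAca
Lyz2: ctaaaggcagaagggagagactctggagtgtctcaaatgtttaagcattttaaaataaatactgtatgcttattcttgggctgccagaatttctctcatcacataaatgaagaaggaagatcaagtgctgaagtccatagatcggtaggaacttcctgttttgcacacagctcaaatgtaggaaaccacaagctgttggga
In Cd68 the GAGGAA match runs from position -225 to -220 relative to the start, and the 2 TGANTCA matches begin at -149 and -24. In Trem2 the GAGGAA letters lie on the opposite strand, from -40 to -35, and the TGANTCA match runs from -9 to -3. A match describes letters in the window and not binding.

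Between the labels, each of the 9 genes had a lower mean in the libraries labelled MEKi, by 0.12 to 0.59 on the log2 scale, and for none did the difference pass the test or the 95% interval exclude 0. Limma, fitted over all 19129 genes with Benjamini-Hochberg adjustment, called 0 of the 9, with an adjusted p of 1 for each, and 0 of the 9 had an unadjusted p under 0.05. Over all genes 0.00523% were called, a single gene, and 1.77% had an unadjusted p under 0.05. The median difference was -0.25 over the 9 genes and 0.01 over all genes, of which 48.4% were lower in sign. Genes of 1 cell type can vary together, and the 9 were chosen with earlier results of these data known. Their shared sign therefore does not count as 9 separate observations. For 0 of the 9 genes did the 2 labels fail to overlap, against 1.27% of all genes (0.701% with MEKi below control). The mean of the 9 genes was 11.26, 11.48, 10.99 and 11.14 in control 1 to 4 and 11.02, 10.90, 10.98 and 10.86 in MEKi 1 to 4. Control 1, 2 and 4 lay above all MEKi libraries, and control 3 lay between MEKi 1 and MEKi 3. The mean over the labels was 11.22 ± 0.20 (SD, n = 4) for control and 10.94 ± 0.07 (SD, n = 4) for MEKi. The difference of -0.28 ranged from -0.35 without control 3 to -0.19 without control 2. In tumour pieces, fewer macrophages and less of these transcripts per macrophage cannot be told apart.

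**Figure D1:**
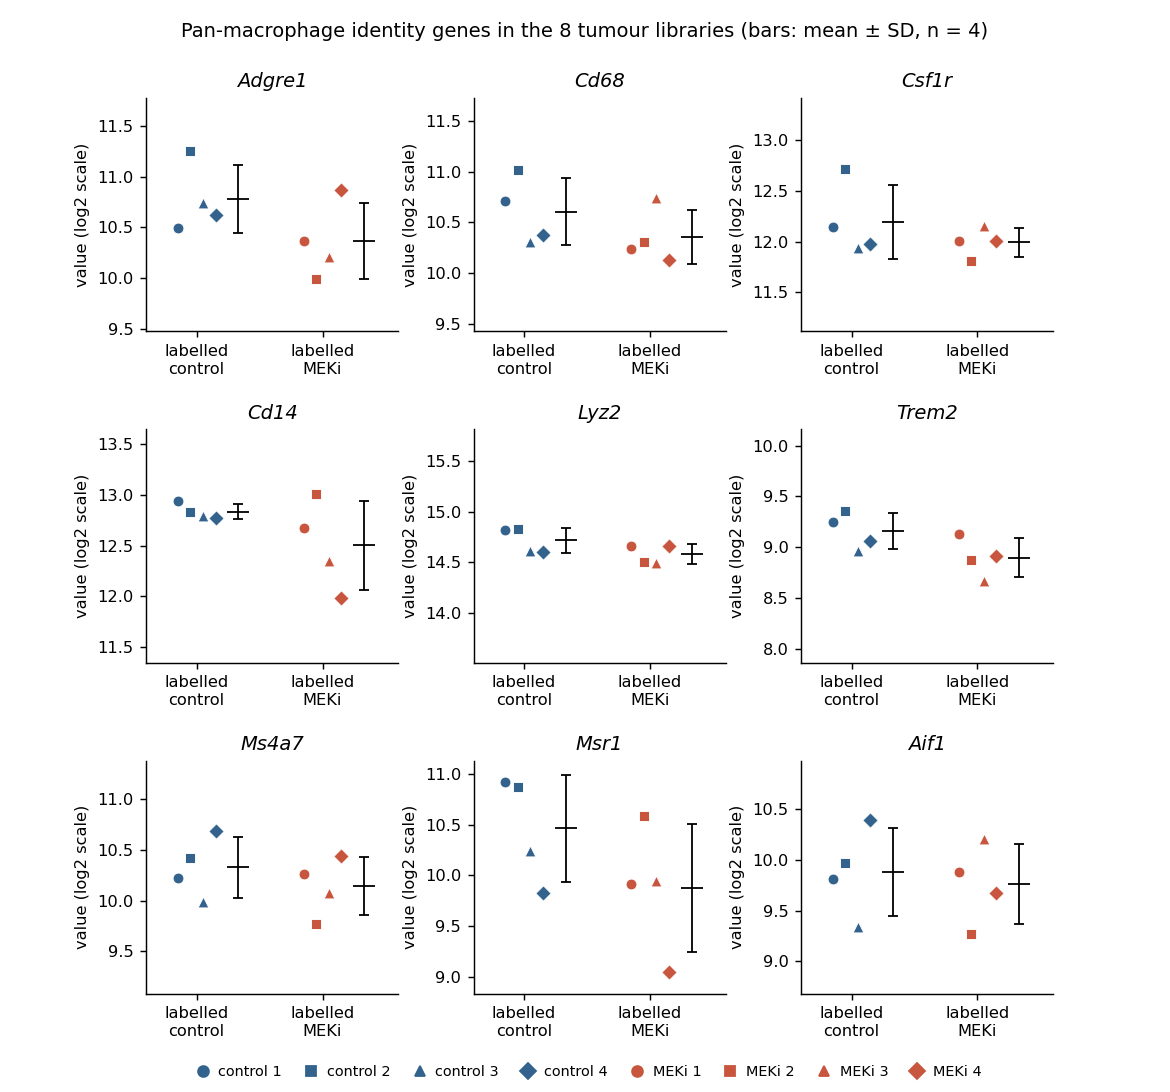
Value of each of the 9 genes (y axis, variance-stabilised log2 scale, every panel spanning the same number of units) in the 4 libraries labelled control (blue) and the 4 labelled MEKi (red), with marker shapes for replicates 1 to 4 and bars for the mean ± SD (n = 4). The labels overlap in every panel; control 2 is highest for 5 genes, and Msr1 spreads most, from 9.04 in MEKi 4 to 10.92 in control 1.

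Adgre1 and Csf1r encode surface receptors by which macrophages are usually defined. Adgre1 encodes F4/80, an adhesion-type G protein-coupled receptor (chromosome 17, 57358691 to 57483527), and had values of 10.49, 11.26, 10.74 and 10.62 in control 1 to 4 and 10.37, 9.99, 10.21 and 10.87 in MEKi 1 to 4. MEKi 1, 2 and 3 lay below every control library, while MEKi 4 lay above all but control 2. The difference was -0.42 (SE 0.21, 95% interval -0.89 to 0.06, limma unadjusted p = 0.0813, adjusted p = 1). It was -0.26 without control 2, -0.19 without control 2 and 3, the libraries richest in acinar transcripts, and -0.16 with the mean of acinar markers as a covariate. In normalised reads per kilobase the label means of Adgre1 were 532 ± 138 for control and 396 ± 115 for MEKi (SD, n = 4).

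Csf1r encodes the receptor tyrosine kinase for CSF1 and IL-34 (chromosome 18, 61100598 to 61132149) and had values of 12.14, 12.72, 11.94 and 11.97 in control 1 to 4 and 12.002, 11.81, 12.15 and 12.01 in MEKi 1 to 4. Only control 2 stood clearly above the rest, and MEKi 3 exceeded the other 3 control libraries. The difference of -0.20 (SE 0.17, interval -0.58 to 0.18, unadjusted p = 0.267) was -0.03 without control 2 and -0.06 without control 2 and 3. The 2 genes did not have the same order: MEKi 4 lay below only control 2 for Adgre1, but below control 1, control 2 and MEKi 3 for Csf1r.

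Cd14 and Msr1 encode receptors for microbial and modified lipid ligands, and here the libraries labelled MEKi spread widely. Cd14 encodes the co-receptor that passes lipopolysaccharide to TLR4 (chromosome 18, 36725067 to 36726798). Its values were 12.94, 12.84, 12.79 and 12.77 in control 1 to 4 and 12.67, 13.01, 12.35 and 11.98 in MEKi 1 to 4. The controls lay within a narrow band, and MEKi 2 above and the other 3 MEKi libraries below it. The SD was 0.07 for control and 0.44 for MEKi (n = 4 each), and the difference was -0.33 (SE 0.19, interval -0.76 to 0.10, unadjusted p = 0.118). It was -0.16 without MEKi 4, -0.50 without MEKi 2 and -0.21 with array weights.

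Msr1 encodes the class A scavenger receptor, which takes up modified lipoproteins (chromosome 8, 39581685 to 39642673), and had the largest difference of the 9 genes. Its values were 10.92, 10.87, 10.24 and 9.82 in control 1 to 4 and 9.91, 10.58, 9.94 and 9.04 in MEKi 1 to 4. Control 1 and 2 were high and MEKi 4 lowest, but MEKi 2 exceeded control 3 and 4, and control 4 exceeded only MEKi 4. The difference was -0.59 (SE 0.34, interval -1.35 to 0.16, unadjusted p = 0.109, adjusted p = 1), and -0.32 without MEKi 4. In normalised reads per kilobase Msr1 averaged 223 ± 79.7 in control and 147 ± 64.8 in MEKi (SD, n = 4).

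MEKi 4, lowest for Msr1, Cd14 and Cd68, was also lowest for the means of neutrophil markers, monocyte markers (9.13) and pan-leukocyte genes (10.30). The same held narrowly for B cell markers (6.26, against 6.28 in control 1). MEKi 4 was not lowest for dendritic cell markers (8.05, against 8.02 in control 3) or for T cell and NK markers (7.97, against 7.58 in MEKi 2). For Adgre1 it lay below control 2 alone (10.87 against 11.26), and for Ms4a7 below control 4 alone (10.44 against 10.69). Of 12 neutrophil genes listed 11 were measured, and each of the 11 had a lower mean among the MEKi libraries, with 0 called. Their mean value was 7.60 in MEKi 4 against 8.78 to 9.37 in the other 7 libraries. Their summed level, in reads per library total scaled as CPM, ranged from 278 to 388 for control and from 96.2 to 499 for MEKi, and none was at 0 in every library. Acinar transcripts inflate the total of control 3, so these sums are not on the scale of the levels per kilobase. The neutrophil receptor gene Csf3r had 9.35 in MEKi 4 and 10.32 to 10.96 elsewhere. The part of neutrophils, monocytes or other leukocytes in the Cd14 and Msr1 values was not tested.

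Cd68 and Lyz2 encode lysosomal and secreted proteins of phagocytes. Cd68, the gene of a lysosomal membrane glycoprotein also called macrosialin (chromosome 11, 69664213 to 69666153), had values of 10.71, 11.02, 10.31 and 10.37 in control 1 to 4 and 10.24, 10.31, 10.74 and 10.13 in MEKi 1 to 4. Control 1, control 2 and MEKi 3 were high, and the other 5 libraries lay within 10.13 to 10.37. The difference was -0.25 (SE 0.19, interval -0.66 to 0.17, unadjusted p = 0.21), and ranged from -0.38 without MEKi 3 to -0.11 without control 2.

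Lyz2 varied least, with values of 14.82, 14.83, 14.61 and 14.60 in control 1 to 4 and 14.67, 14.51, 14.49 and 14.66 in MEKi 1 to 4. Control 1 and 2 stood together at the top, and the other 2 controls lay among the MEKi libraries. The difference was -0.13 (SE 0.11, interval -0.39 to 0.12, unadjusted p = 0.266), and -0.03 after quantile normalization.

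Trem2 encodes a receptor for lipids and lipoproteins that signals through the adaptor TYROBP and marks lipid-associated tumour macrophages (chromosome 17, 48346401 to 48354147). Its values were 9.24, 9.35, 8.96 and 9.06 in control 1 to 4 and 9.13, 8.87, 8.67 and 8.91 in MEKi 1 to 4. MEKi 2, 3 and 4 lay below all controls, and MEKi 1 lay between control 4 and control 1. The difference of -0.26 (SE 0.14, interval -0.58 to 0.06, unadjusted p = 0.0978) stayed between -0.34 and -0.18 with each library left out in turn.

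Ms4a7 and Aif1 followed another order of libraries. Ms4a7 encodes a membrane-spanning 4A protein of mature macrophages (chromosome 19, 11321039 to 11336146) and had 10.22, 10.42, 9.98 and 10.69 in control 1 to 4 and 10.27, 9.77, 10.08 and 10.44 in MEKi 1 to 4. Control 4 was highest and MEKi 2 lowest, with the labels interleaved between them. The difference was -0.19 (SE 0.18, interval -0.60 to 0.22, unadjusted p = 0.328), and -0.07 without MEKi 2 or control 4. It was -0.30 without control 3, -0.29 when MEKi 4 was left out and -0.31 without control 2 and 3 together.

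Aif1 encodes IBA1, a calcium-binding protein of the macrophage cytoskeleton (chromosome 17, 35170991 to 35176068), and its sign depended on single libraries. It had 9.82, 9.97, 9.34 and 10.39 in control 1 to 4 and 9.88, 9.27, 10.21 and 9.68 in MEKi 1 to 4. Control 4 and MEKi 3 were highest, control 3 and MEKi 2 lowest. The difference was -0.12 (SE 0.25, interval -0.67 to 0.43, unadjusted p = 0.635). It turned to 0.05 without control 4 and to 0.04 without MEKi 2, was -0.30 without control 3, -0.27 without MEKi 3 and -0.34 without control 2 and 3, and was -0.41 with the acinar covariate and -0.04 with the mean of pan-leukocyte genes as a covariate.

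**Figure D2:**
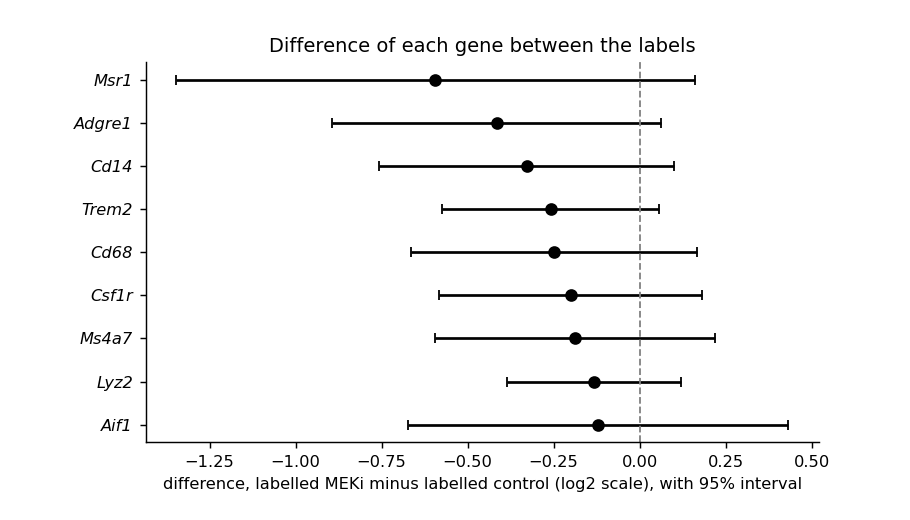
Difference of each gene between the labels (x axis, MEKi minus control on the log2 scale; points, limma estimates; bars, 95% intervals; dashed line, 0). All 9 points lie below 0, from -0.12 for Aif1 to -0.59 for Msr1, and all 9 intervals include 0.

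How far the 9 genes vary together over the libraries was examined pair by pair. Lyz2 was left out, because its values fall into 2 separate sets, control 1 and 2 against the rest, which left 28 pairs of 8 genes over 8 libraries. Pearson's r was positive in 22 pairs and negative in 6, with a median of 0.38 and a range from -0.36 for Ms4a7 and Msr1 to 0.85 for Cd14 and Msr1. In an exact permutation test over the 40320 pairings of the libraries (two-sided), 3 pairs had an unadjusted p under 0.05 and 0 of 28 passed after Benjamini-Hochberg adjustment. By Spearman's rho, 1 pair had an unadjusted p under 0.05 and 0 passed.

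The 3 pairs with the smallest p involved different genes. Cd14 and Msr1 had r = 0.85 (exact permutation p = 0.00466, adjusted p = 0.0684) and rho = 0.83 (exact p = 0.0154, adjusted p = 0.431, n = 8). Without MEKi 3 and MEKi 4, the libraries farthest from the median of Cd14, r was 0.72 (exact p = 0.11, n = 6). Both genes were highest in control 1, control 2 and MEKi 2 and lowest in MEKi 4.

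Cd68 and Csf1r had r = 0.85 (exact permutation p = 0.00489, adjusted p = 0.0684) and rho = 0.60 (exact p = 0.132, adjusted p = 0.612, n = 8). Without control 2 and MEKi 3, r was 0.54 and rho 0.03 (n = 6). With each library left out in turn, r was at least 0.70. Ms4a7 and Aif1 had r = 0.73 (exact permutation p = 0.0404, adjusted p = 0.377) and rho = 0.62 (exact p = 0.115, adjusted p = 0.612, n = 8), and without control 4 and MEKi 2 r was 0.22. With single libraries left out, r of Ms4a7 and Aif1 was at least 0.56. Leaving out the 2 farthest libraries also narrows the range, so it cannot tell how far a relation rests on them. In deviations from the label means the same 3 pairs had r of 0.80, 0.82 and 0.73.

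**Figure D3:**
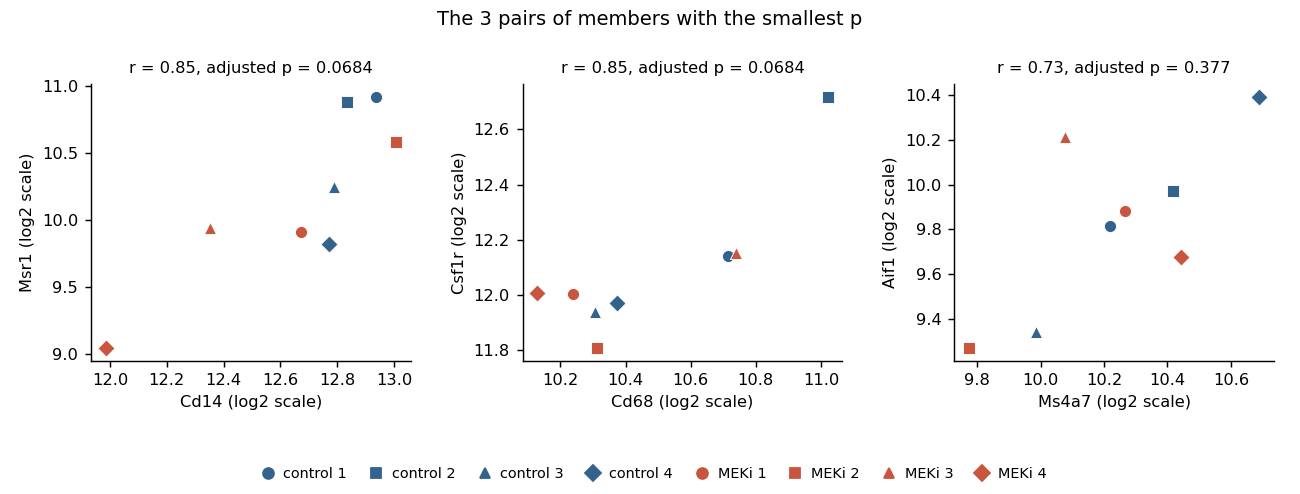
Values of the 3 pairs of genes with the smallest exact permutation p over the 8 libraries (axes, variance-stabilised log2 scale; colours, labels; shapes, replicates). Cd14 and Msr1 are both lowest in MEKi 4, control 2 stands alone at the upper end of Cd68 and Csf1r, and Ms4a7 and Aif1 are both highest in control 4 and lowest in MEKi 2.

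ERK output was read from Dusp6, the gene of a phosphatase that ERK induces and that dephosphorylates ERK. Trametinib would be taken to lower it, but Dusp6 did not separate the labels. It was 12.19, 12.14, 9.31 and 9.24 in control 1 to 4 and 8.88, 12.12, 12.20 and 11.01 in MEKi 1 to 4, a difference of 0.33 (interval -1.70 to 2.36, limma adjusted p = 1). Directions between the labels are therefore those between libraries labelled MEKi and control, not those between tumours of low and high ERK output. The values fall into separate sets, 3 libraries from 8.88 to 9.31 and 5 from 11.01 to 12.20, and the mean of 20 ERK output genes also fell into separate sets, 4 libraries from 8.99 to 9.58 and 4 from 10.30 to 10.54, with MEKi 4 in the lower one. Because both measures fall into separate sets, no correlation was computed and the values are set side by side. In deviations from the label means the ERK mean still fell into separate sets and Dusp6 did not, but no correlation was computed on these either.

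At low Dusp6 the mean of the 9 genes was 11.02 in MEKi 1, 11.14 in control 4 and 10.99 in control 3. At Dusp6 of 12.12 to 12.20 it was 10.90 in MEKi 2, 11.48 in control 2, 11.26 in control 1 and 10.98 in MEKi 3, and in MEKi 4, with Dusp6 at 11.01, it was 10.86. Libraries of nearly equal Dusp6 thus held both the highest and nearly the lowest means. MEKi 2 and control 2, at 12.12 and 12.14 for Dusp6, had the lowest and the highest value of the series for Adgre1 (9.99 and 11.26) and for Csf1r (11.81 and 12.72).

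Msr1 was high in 3 of the 4 libraries with the highest Dusp6, at 10.92 in control 1, 10.87 in control 2 and 10.58 in MEKi 2. It was 9.94 in MEKi 3, which had the highest Dusp6, and 9.82 to 10.24 in the 3 libraries with the lowest. MEKi 4, also in the upper set of Dusp6 at 11.01, had the lowest Msr1 of the series (9.04). With Dusp6 as a covariate the difference between the labels was -0.66 for Msr1, -0.41 for Adgre1, -0.34 for Cd14 and -0.23 for Csf1r, against -0.59, -0.42, -0.33 and -0.20 without it. The mean over the 9 genes was -0.29 with the covariate, and 0 of the 9 were called.

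**Figure D4:**
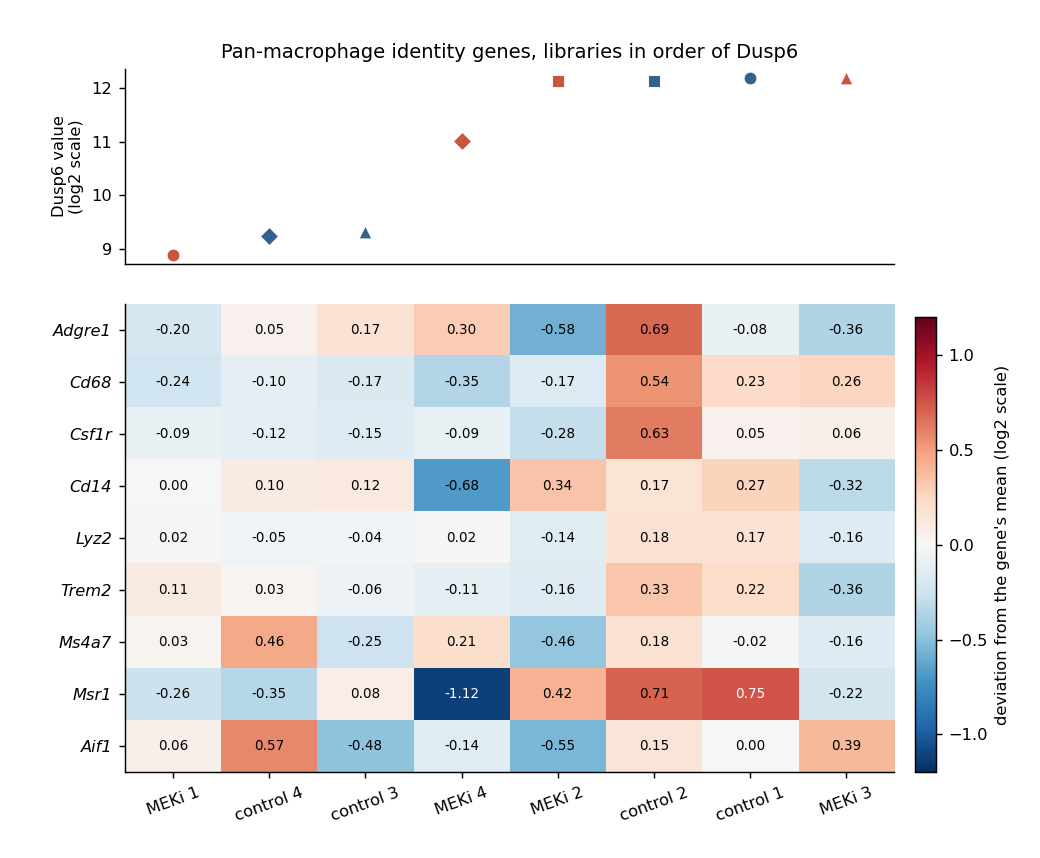
Upper panel, Dusp6 value (y axis, log2 scale) of each library in ascending order, with colours for labels and shapes for replicates. Lower panel, deviation of each of the 9 genes from its mean over the 8 libraries (colour and number, log2 scale) in the same order; control 2 is above the mean for all 9 genes, and the largest deviation is -1.12, for Msr1 in MEKi 4.

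Genes whose pattern was most like the mean of the 9 were sought among 12310 other genes with at least 100 reads per library on average. By Pearson's r over the 8 libraries, given as a description without a test, the first 10 were G0s2 (0.97), Ptafr (0.96), Ms4a6c (0.92), Tmem45a (0.91), Cd300ld (0.91), C5ar2 (0.90), Nxpe5 (0.89), Oasl1 (0.89), Clec4a1 (0.89) and Vsir (0.88). Ptafr encodes the receptor for platelet-activating factor, C5ar2 a receptor for complement C5a, and Clec4a1 a C-type lectin. Ptafr had 9.19, 9.30, 8.86 and 9.10 in control 1 to 4 and 8.90, 8.75, 8.93 and 8.62 in MEKi 1 to 4. As with the mean of the members, control 3 was the only control library below a MEKi library.

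For single members the most similar gene was Dpep1 for Adgre1 (r = 0.94), Slc11a1 for Cd68 (0.98), Cpeb1 for Csf1r (0.95), Pcdhga5 for Cd14 (0.99), Trim41 for Lyz2 (0.96), Dok7 for Trem2 (0.98), Tnfrsf1b for Ms4a7 (0.94), Hcar2 for Msr1 (0.98) and Art2b for Aif1 (0.98). The values of Lyz2 fall into separate sets, control 1 and control 2 against the rest, which limits what its r describes. Slc11a1 encodes NRAMP1, a metal transporter of the phagosome, and Tnfrsf1b the tumour necrosis factor receptor TNFR2. Hcar2, the receptor gene for niacin and ketone bodies, had 8.90, 8.81, 7.61 and 6.95 in control 1 to 4 and 7.15, 8.13, 7.30 and 6.35 in MEKi 1 to 4. It was high in control 1, control 2 and MEKi 2 and lowest in MEKi 4, as Msr1 was. How high r would be for other patterns over as many genes was not tested.

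Genes related to the members by pathway, family or cell class were taken from lists. Upstream of the class stand the ligands of CSF1R, related growth factor receptors and the transcription factors of macrophages, 17 genes of which 9 were lower and 8 higher in sign, with a median difference of 0.00 and 0 called. The ligand gene Csf1 had 10.96 ± 0.25 and 10.77 ± 0.38 (SD, n = 4 here and below, control first), the receptor subunit gene Csf2rb 11.05 ± 0.27 and 10.78 ± 0.57, and the transcription factor gene Cebpb 7.26 ± 0.34 and 6.99 ± 0.18.

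Among genes of the TREM2 adaptor and lipid-associated list, 14 of 16 were lower in sign, with a median difference of -0.10 and 0 called. Apoe, which encodes a lipoprotein that TREM2 binds, had 15.08 ± 0.25 and 14.82 ± 0.20, the cathepsin gene Ctsl 13.55 ± 0.40 and 13.31 ± 0.29, and the Fc receptor adaptor gene Fcer1g 10.62 ± 0.25 and 10.42 ± 0.43. Of 16 genes of Toll-like receptors and their signalling, listed for CD14, 11 were lower and 5 higher, with a median of -0.04 and 0 called. Tlr13, a receptor for bacterial RNA, had 9.33 ± 0.25 and 9.11 ± 0.33, Tlr7 8.02 ± 0.33 and 7.83 ± 0.43, and the adaptor gene Ticam2 6.80 ± 0.14 and 6.70 ± 0.14.

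Among 19 scavenger, Fc and efferocytosis receptor genes, 15 were lower and 4 higher, with a median of -0.23. None was called, and 1 had an unadjusted p under 0.05. That gene, the lectin gene Cd209f, had 6.71 ± 0.52 and 5.76 ± 0.69 (difference -0.95, SE 0.36, limma adjusted p = 1) with at most 64 reads in a library and 0 in MEKi 3. The mannose receptor gene Mrc1 had 11.30 ± 0.80 and 10.63 ± 0.37, and the inhibitory Fc receptor gene Fcgr2b 11.76 ± 0.55 and 11.24 ± 0.37. Within the MS4A family, 8 of 10 measured genes besides Ms4a7 were lower, with a median of -0.22 and 0 called. Ms4a4a had 9.48, 9.71, 8.47 and 8.52 in control 1 to 4 and 8.60, 8.94, 8.30 and 7.42 in MEKi 1 to 4. Like Msr1 and unlike its family member Ms4a7, it was highest in control 1, control 2 and MEKi 2 and lowest in MEKi 4. Ms4a8a had 9.62 ± 0.26 and 9.16 ± 0.59, and Ms4a6c 9.39 ± 0.38 and 9.08 ± 0.20.

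Pan-leukocyte genes, which macrophages share with all other white blood cells, were lower in sign for 10 of 12, with a median of -0.10 and 0 called. Their mean was 10.66, 11.04, 10.56 and 10.87 in control 1 to 4 and 10.77, 10.40, 11.30 and 10.30 in MEKi 1 to 4, highest in MEKi 3. The lysosomal gene Laptm5 had 11.83 ± 0.21 and 11.61 ± 0.36, the integrin gene Itgb2 11.26 ± 0.26 and 11.06 ± 0.34, and the tetraspanin gene Cd53 10.86 ± 0.40 and 10.62 ± 0.50. With the pan-leukocyte mean as a covariate, the mean difference of the 9 macrophage genes was -0.25, and 0 of them were called. Acinar markers, 12 of 13 measured and each lower in mean among the MEKi libraries with 0 called and 1 unadjusted p under 0.05, summed to 223 to 125073 CPM in the control libraries and 11.5 to 2605 in the MEKi libraries, with none at 0 in every library. Their mean was highest in control 3 (17.04) and control 2 (15.39), libraries of the lowest control mean and the highest mean of the 9 genes. With the acinar mean as a covariate the mean difference of the 9 genes was -0.30.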

How the data were processed

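RNA of 8 pancreatic tumour isografts was sequenced from TruSeq stranded total RNA libraries on a HiSeq2000, per the labels' protocols. STAR 2.5.3a, DESeq2 1.18.1 and GRCm38 are named in the submitters' processing notes; for annotation, counting and gene filter, "not given in the sources used here" applies. Per the file name, the authors deposited log2 values after variance stabilisation. Inverting the transformation from its lowest value gave whole reads for 100% of the values (within 0.01). Of 19431 rows, 32 had no gene name (0.101% to 0.167% of the reads) and were not used. Where a symbol had more than 1 row (86 symbols), the most abundant was taken. This gave 19129 genes, of which 19056 matched reference names.

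The test was limma 3.58.1 under R 4.3.3 (two-sided, trend, no covariates, Benjamini-Hochberg over all genes, threshold 0.05), tested on simulated data. The members and lists were chosen with earlier results of these data known, so lists are given by counts and medians only. Named genes are the 9 members, Dusp6 and Lyz1, the 3 genes of each list with the smallest p, and the genes most alike by r. A measure counted as falling into separate sets where an inner gap exceeded 0.4 of its range, a rule written when the split of Dusp6 was already known. The correlations were first run on all 36 pairs of members; the 8 pairs with Lyz2 were then dropped under that rule, which the design had already set. Of the 36, 4 had an unadjusted p under 0.05, 0 passed after adjustment, and the lowest adjusted p by Pearson's r was 0.0586. The 28 pairs kept hold only 3 of those 4, so a pair with Lyz2 was also under 0.05 and is not shown. The planned relations to ERK output were not computed, for the same reason. Levels per kilobase were first scaled by library totals and, after acinar transcripts were seen to inflate the total of control 3, by the authors' size factors, recovered from the table.

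The 21 alternatives changed the moderation (robust, or without trend), the scaling (quantile normalization or a common median), the genes (the upper 75% by mean, or all rows) or the fit (voom on recovered reads, or array weights), added a covariate (acinar mean, pan-leukocyte mean or Dusp6) or a block for the replicate number, or left out each library. Leaving out both libraries with the highest acinar mean was chosen after seeing the data. Gene models are from GENCODE (GRCm38), and coordinates count from 1. Figures were drawn with matplotlib 3.10.9.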

Additional observations from a re-analysis of the deposited data

How the results depend on the processing

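In each of the 21 alternatives 0 of the 9 genes were called, with a lowest adjusted p of 0.984. All 9 differences stayed negative in 19 of them. The exceptions concern Aif1, at 0.0495 without control 4 and 0.04 without MEKi 2. With a library left out, Aif1 ranged from -0.30 to 0.0495. The mean difference of the 9 genes lay between -0.35 and -0.19. The number of genes called in the whole table, 1, was 0 with the 75% of genes with the highest mean, the acinar covariate, the Dusp6 covariate or the replicate block, 0 to 2 with a library left out, and 4 without both acinar-rich libraries. 0 of 28 pairs and 0 of 208 genes of the other lists passed in any alternative run for them. Deviations of same-numbered libraries from their label means had r from -0.46 to 0.20 over genes. For control 2 the library of the same number gave the highest r. With 4 libraries per label these values cannot settle whether the numbers pair animals or batches. With the replicate block 0 members were called. The relation to Dusp6 was not run under alternatives, since its values fall into separate sets. With 4 libraries per label the 95% intervals of all 9 genes include 0, the narrowest from -0.39 to 0.12 for Lyz2 and the widest from -1.35 to 0.16 for Msr1.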

Other observations

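Other cell types in the same libraries did not share a direction. Monocyte markers were lower in sign for 9 of 12 genes (median difference -0.09), among them Chil3 (-1.59), F13a1 (-1.13) and Ace (-0.38). Dendritic cell markers were higher for 9 of 12 (median 0.15). Among these was Flt3, a growth factor receptor gene that was highest in MEKi 3 (9.01 against 6.92 to 8.02 elsewhere), while Clec10a (-0.41) and Fscn1 (-0.12) were lower. T cell and NK markers were split evenly, 7 higher and 7 lower (median -0.07). Cd4 had 8.33 ± 0.57 and 9.05 ± 0.70 (SD, n = 4, control first), Gzmb 8.51 ± 0.38 and 7.75 ± 0.83, and Gzma 8.58 ± 0.61 and 8.08 ± 0.72. All 10 B cell markers were higher in sign (median 0.39), and their mean was 8.28 in MEKi 3 against 6.26 to 7.28 elsewhere. Fibroblast markers were lower in sign for 10 of 11 (median -0.30), endothelial markers for 6 of 8 (median -0.18) and epithelial tumour markers for 5 of 9 (median -0.03). ERK output genes were higher in sign for 13 of 20 (median 0.08). Limma called 0 genes of these 7 lists and of the monocyte list, with 1 unadjusted p under 0.05, that of Pdpn among the fibroblast markers.

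The library labelled MEKi 4, lowest for Msr1, Cd14 and Cd68, was also low for 2 genes of the tumour epithelium. Epcam had 10.70 there against 12.66 to 13.10 in the other 7 libraries, and the tight junction gene Cldn4 had 7.32 against 8.91 to 9.23, while Cdh1, which encodes E-cadherin, was highest there at 14.49.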
